A study of Mus musculus with 6 samples.

Results

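The comparison set clear cells of the mouse caput epididymis, the proximal part of the duct, against clear cells of the corpus, the middle part. It used the 4 libraries labelled clear cell from caput 1 and 2 and clear cell from corpus 1 and 2, out of 6 in the series. The other 2 libraries, of the cauda (the distal end), entered the fit for their spread and are given only as levels. All mice were transgenic for EGFP under the promoter of Atp6v1b1, a gene for a proton pump subunit, were 12 weeks old and received no treatment. EGFP-positive cells were isolated from each region by double sorting, and every library pooled the cells of 12 epididymides. Whether the 2 pools of a region came from different mice is not stated, and the p-values reflect library-to-library spread alone, which may be technical. The question was how the whole expression profile of the sorted cells differed over the first step along the duct.

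Clear cells are the proton-secreting cells of the epididymal epithelium. They hold the vacuolar proton pump (V-ATPase) in vesicles and in apical microvilli, and acidify the lumen in which sperm mature and are stored. They share the forkhead factor Foxi1 and much of their pump machinery with the intercalated cells of the kidney. Principal cells, their neighbours, secrete most of the luminal proteins, and do so in a strongly regional pattern along the duct.

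Levels are CPM, read counts relative to the scaled library size, given as the pair of values of libraries 1 and 2 of a region. Differences are log2 fold changes of caput minus corpus ± SE from edgeR's quasi-likelihood test, with p-values adjusted by Benjamini-Hochberg over all tested genes. A gene was called at an adjusted p under 0.05. Reads in genes were 24700717 and 20724911 in the caput libraries and 18887128 and 21669090 in corpus. The 10 most abundant genes took 4.41% and 4.56% of them in caput and 18.9% and 19.9% in corpus. The second caput library held several-fold more sperm transcripts and more of some luminal transcripts than the first, and results that rest on it are also given without it.

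Of 15816 tested genes, 10275 (65.0%) were called. Higher in caput were 5246 (33.2%) and lower 5029 (31.8%), and the median over all tested genes was 0.04. With library totals in place of the scaling, the called genes split into 8438 higher and 2972 lower, 74.0% higher against 51.1%, and the median of all genes moved to 0.63. List medians moved up with it, and the list counts under library totals are given where the split of calls moved by over 10 percentage points. A difference of at least 1 on the log2 scale was called for 6181 genes (39.1%), 3031 higher and 3150 lower. At an absolute log2 of at least 3, 601 called genes were higher in caput and 630 lower. Only the far ends were unequal: at an absolute log2 of at least 5, 155 genes were higher in caput and 54 lower. These counts include genes with 0 to a few reads in 1 region, whose fitted fold changes are not bounds. Scaled library sizes were larger in both caput libraries than in either corpus library. The part of depth in the inequality was not tested. In 13178 tested genes (83.3%) the libraries of caput and corpus did not overlap. Library pairs of a region were thus close next to the distance between regions, and a gene list is read below against the 65.0% of all genes called. A gene could pass the filter on low counts through 1 region alone, so counts over a list describe its tested members only.

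**Figure D1:**
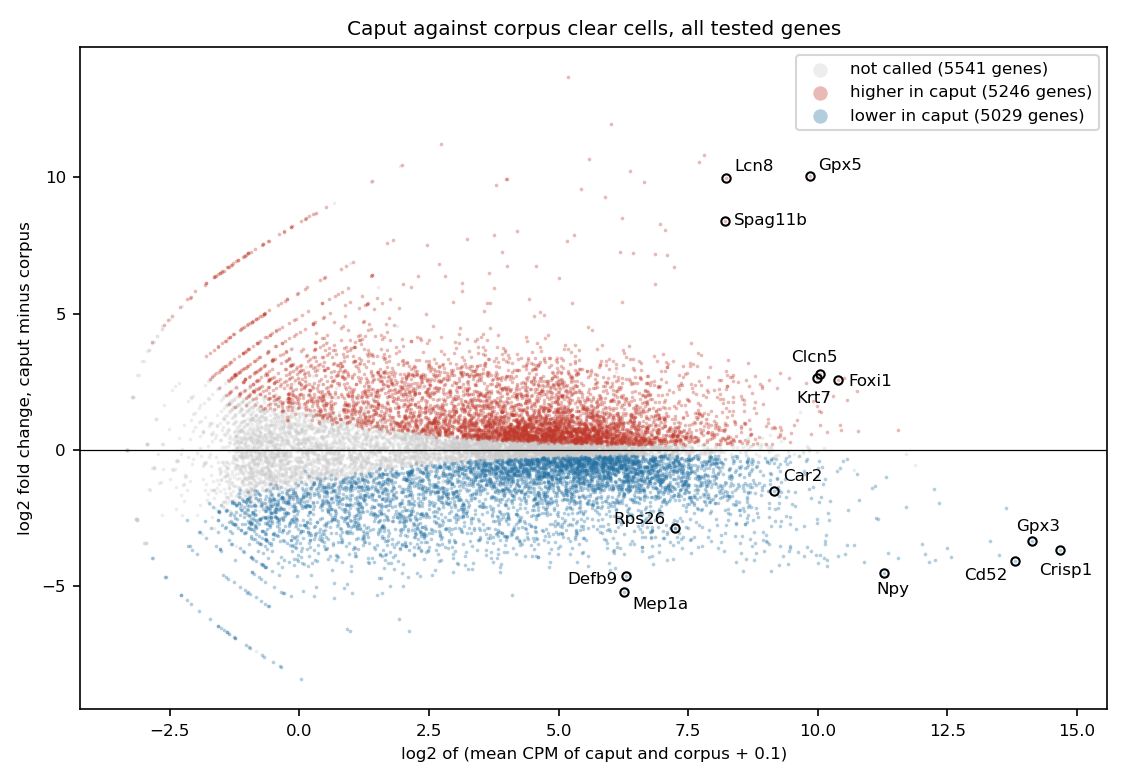
Each point is 1 of 15816 tested genes, with its mean level in caput and corpus on the x axis (log2 CPM) and its log2 fold change, caput minus corpus, on the y axis. Red points were called higher in caput and blue points lower; circles mark genes described in the text. The curved streaks at low levels are genes with 0 to a few reads in 1 region, whose fitted fold changes are not bounds. The most abundant transcripts (Crisp1, Gpx3, Cd52) lie below 0.

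The sorted cells of both regions carried the transcripts that define clear cells, at levels several-fold higher in caput. Of 22 listed clear cell markers 21 passed the filter on low counts, and 20 of these were higher in caput and 1 lower, with a median log2 fold change of 2.32. Foxi1 (ENSMUSG00000047861), a forkhead factor required for proton-secreting epithelial cells, had 2388 and 2187 CPM in caput and 384 and 388 CPM in corpus. All caput values lay above all corpus values, a log2 fold change of 2.57 ± 0.14 (adjusted p = 7.1e-07), and the cauda libraries were lower again, at 151 and 203 CPM. Tfcp2l1, a transcription factor of intercalated cells, followed with 611 and 519 CPM in caput and 88.2 and 88.4 CPM in corpus (2.68 ± 0.11). Kit, a receptor tyrosine kinase, had 238 and 196 CPM in caput and 24.8 and 20.02 CPM in corpus (3.28 ± 0.13). Foxp1, another forkhead gene, had 170.5 and 179 CPM in caput and 38.7 and 44.7 CPM in corpus (2.06 ± 0.10). The regions did not overlap for any of these genes.

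The pump gene whose promoter drives the EGFP moved with them. Atp6v1b1 (ENSMUSG00000006269), the B1 subunit, had 328 and 301 CPM in caput and 53.2 and 65.4 CPM in corpus, and 16.6 and 24.2 CPM in cauda. Both caput values exceeded both corpus values about 5-fold (log2 fold change 2.41 ± 0.17, adjusted p = 1.51e-05). Since cells were sorted on a reporter of this promoter, its level is not independent of the sort. In bulk libraries, fewer clear cells among the sorted cells and less clear cell RNA per cell cannot be told apart.

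Car12, a membrane-bound carbonic anhydrase, had 98.5 and 83.8 CPM in caput and 12.99 and 13.1 CPM in corpus, again with no overlap (2.80 ± 0.14). The 250 bases before the RefSeq start of Atp6v1b1 and of Car12 are shown because each holds the forkhead core hexamer TGTTTA and both are clear cell markers that differed with Foxi1. Capitals mark the hexamer, which begins 98 bases before the start in Atp6v1b1 and 11 bases before it in Car12. Coordinates are of GRCm38.p6, another build than that of the counts, and both sequences are on the plus strand.
Atp6v1b1 promoter, chr6:83742767-83743016, plus strand: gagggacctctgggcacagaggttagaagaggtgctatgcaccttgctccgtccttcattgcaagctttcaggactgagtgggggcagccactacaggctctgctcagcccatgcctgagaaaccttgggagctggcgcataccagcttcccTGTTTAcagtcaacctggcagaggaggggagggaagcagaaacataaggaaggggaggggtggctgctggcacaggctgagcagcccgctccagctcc
Car12 promoter, chr9:66713436-66713685, plus strand: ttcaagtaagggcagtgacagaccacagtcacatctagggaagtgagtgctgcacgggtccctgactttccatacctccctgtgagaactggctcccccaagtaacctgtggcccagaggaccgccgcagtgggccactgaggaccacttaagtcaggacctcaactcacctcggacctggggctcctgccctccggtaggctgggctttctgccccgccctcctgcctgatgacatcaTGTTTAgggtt
The search covered TGTTTA and its reverse complement TAAACA in the 250 bases before each start. It was found for 3 of the 14 clear cell markers with a listed promoter (21.4%), against 13.5% of all 27025 genes there. Among tested genes with a promoter it was in 9.60% of those higher in caput, 9.34% of those lower and 9.86% of those not called. The hexamer was thus about as common in each class of call, and its presence is a description of these letters, not of a binding site.

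The pump subunits did not move as 1 block. Of 23 tested V-ATPase subunit genes 13 were higher in caput, 4 lower and 6 not called, with a median of 0.50 (20 higher and 3 lower with library totals). Atp6v0a4, the a4 subunit known from proton-secreting epithelia, had 67.02 and 54.1 CPM in caput and 11.8 and 16.2 CPM in corpus (2.11 ± 0.17). Atp6v1a, the catalytic A subunit, had 843 and 757 CPM in caput and 168 and 164 CPM in corpus (2.27 ± 0.10, adjusted p = 9.45e-08). Atp6ap2, the accessory protein also called the prorenin receptor, had 453 and 466 CPM in caput and 177 and 202 CPM in corpus (1.28 ± 0.08). Among the 4 lower genes Atp6v0e was nearest to 0 (-0.33). Atp6v1g1 had 144 and 157 CPM in caput and 553 and 570.1 CPM in corpus (-1.90 ± 0.08) and Atp6v0a1, the a1 subunit, 64.4 and 51.3 CPM in caput and 125 and 111 CPM in corpus (-1.03 ± 0.11). Atp6v1f had 142 and 145 CPM in caput and 236 and 259 CPM in corpus (-0.79 ± 0.08), and its difference was -0.02 (adjusted p = 0.809) once the trend with gene length was removed.

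**Figure D2:**
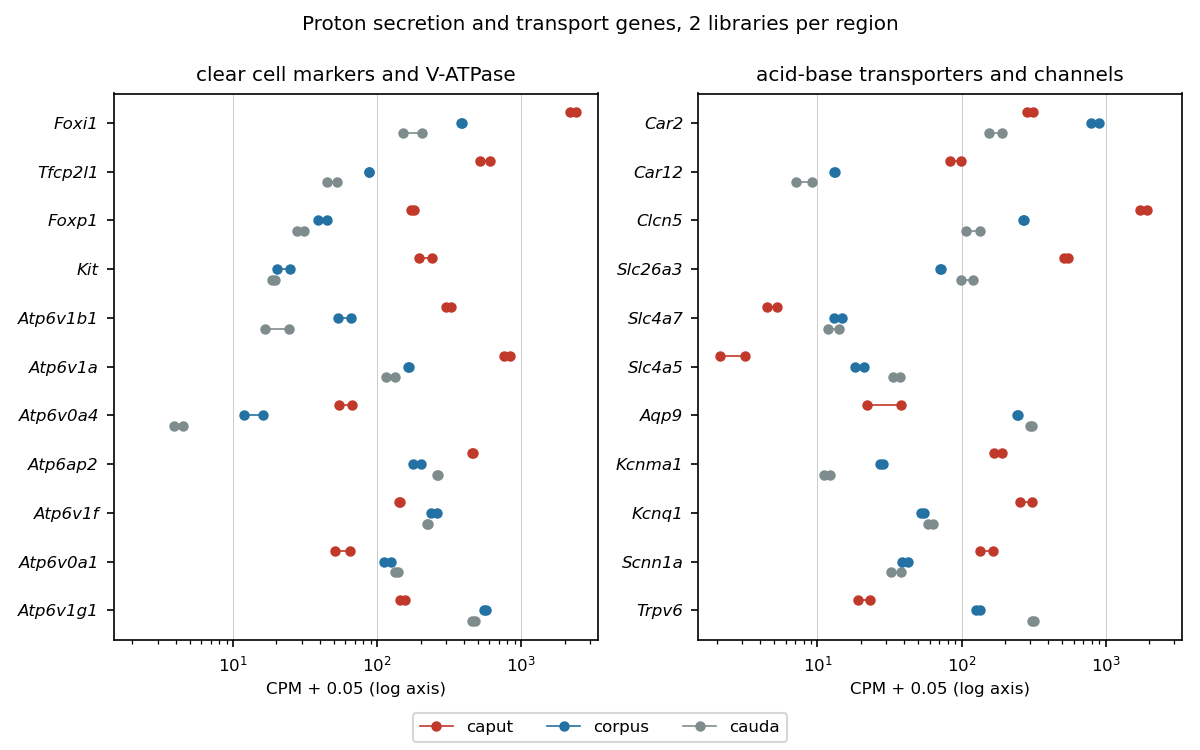
Each point is 1 library (CPM plus 0.05, log axis) and a line joins the 2 libraries of a region; red is caput, blue corpus and grey cauda. Foxi1, Kit and the a4 and B1 pump subunits have their caput points to the right of both corpus points, while Car2, Aqp9, Slc4a5, Trpv6 and Atp6v1g1 have them to the left.

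Car2 was the 1 clear cell marker that went the other way. This cytosolic carbonic anhydrase, which supplies protons and bicarbonate inside the cell, had 285 and 313 CPM in caput and 791 and 903 CPM in corpus and 154 and 192 CPM in cauda. Corpus was thus above both ends of the duct, and the step from caput was -1.50 ± 0.12 (adjusted p = 5.58e-06). Of 29 tested acid-base genes 13 were higher in caput and 11 lower, with a median of 0.48 (0.78 without the first corpus library). With library totals 16 were higher and 8 lower. Clcn5, an endosomal chloride-proton exchanger, had 1954 and 1727 CPM in caput and 266 and 271 CPM in corpus (2.78 ± 0.12). Slc26a3, a chloride-bicarbonate exchanger, had 551 and 511 CPM in caput and 71.6 and 71.0 CPM in corpus (2.90 ± 0.10). The bicarbonate transporters Slc4a5, with 2.05 and 3.11 CPM in caput and 18.1 and 20.9 CPM in corpus (-2.93 ± 0.20), and Slc4a7, with 5.19 and 4.44 CPM in caput and 14.7 and 12.9 CPM in corpus (-1.51 ± 0.18), lay on the lower side.

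Ion and water channels were divided as well, with 14 of 33 tested genes higher in caput, 12 lower and a median of 0.40 (17 higher and 8 lower with library totals). The potassium channel gene Kcnma1 had 192 and 169 CPM in caput and 28.4 and 26.9 CPM in corpus (2.71 ± 0.10) and Kcnq1, another, had 307 and 254 CPM in caput and 55.2 and 52.6 CPM in corpus (2.38 ± 0.11). Scnn1a, the alpha subunit of the epithelial sodium channel, had 165 and 134 CPM in caput and 42.4 and 38.4 CPM in corpus (1.89 ± 0.13). On the other side, the calcium channel gene Trpv6 had 23.1 and 18.95 CPM in caput and 135 and 125 CPM in corpus (-2.63 ± 0.10). Kcne3, a potassium channel subunit, had 2.76 and 3.01 CPM in caput and 24.6 and 26.4 CPM in corpus (-3.14 ± 0.28), and the aquaporin gene Aqp11 had 5.46 and 6.49 CPM in caput and 32.6 and 32.5 CPM in corpus (-2.45 ± 0.12). Aqp9, the aquaglyceroporin of principal cells, had 37.7 and 22.2 CPM in caput and 242 and 247 CPM in corpus and 306 and 298 CPM in cauda (-3.03 ± 0.25, adjusted p = 0.00018). Its caput libraries were apart from each other and both far below corpus.

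Markers of other cell types differed between the regions, and their summed levels stand beside all results that follow. The 17 tested principal cell markers summed to 9628 and 10021 CPM in caput and 81244 and 93741 CPM in corpus, and to 149368 and 138305 CPM in cauda. By count 6 of them were higher in caput and 8 lower (9 and 8 with library totals), since the list holds luminal genes of both regions. The clear cell markers summed to 11798 and 11486 CPM in caput and 3146 and 3622 CPM in corpus. Crisp1 and Cd52, luminal genes given below, made the larger part of the principal cell sum in corpus, and the median over that list was -0.06. The summed principal cell markers were thus higher and the summed clear cell markers lower in corpus than in caput. The part of this in the differences below was not tested.

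Basal cell markers were also higher in caput: 10 of 15 tested were higher and 1 lower, and their sum was 651.5 and 786.1 CPM in caput and 317.2 and 280.2 CPM in corpus. Krt5, the keratin that marks basal cells, had 37.7 and 54.9 CPM in caput and 11.2 and 5.88 CPM in corpus (2.45 ± 0.44). Itga3, a laminin receptor subunit, had 78.5 and 80.7 CPM in caput and 22.9 and 20.4 CPM in corpus (1.88 ± 0.12), and Itga6, its relative and the exception, had 14.2 and 17.4 CPM in caput and 40.7 and 46.9 CPM in corpus (-1.47 ± 0.15). Stromal markers summed to 675.2 and 817.3 CPM in caput and 214.6 and 211 CPM in corpus, of which Dcn, a matrix proteoglycan, made the larger part with 570.5 and 583 CPM in caput and 83.9 and 88.2 CPM in corpus (2.74 ± 0.09). Of 17 tested stromal genes 3 were higher and 1 lower, 23.5% called against 65.0% of all genes. These counts were 7 and 1 without the first caput library, 2 and 6 without the second, 5 and 2 with the replicate block, and 7 and 0 with library totals, so the direction of the count rested on single libraries. Sparc, the matrix glycoprotein osteonectin, had 75.6 and 139 CPM in caput and 31.6 and 34.4 CPM in corpus (1.70 ± 0.32, adjusted p = 0.0522 without the first corpus library). Endothelial markers summed to 41.7 and 51.3 CPM in caput and 148.7 and 165.4 CPM in corpus, mostly through Egfl7 with 8.15 and 10.5 CPM in caput and 114 and 131 CPM in corpus (-3.72 ± 0.17), while Vwf, von Willebrand factor, had 24.2 and 24.9 CPM in caput and 12.2 and 10.8 CPM in corpus (1.10 ± 0.21).

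Blood cell markers were low in all 4 libraries. Leukocyte and phagocyte markers summed to 40.2 and 36 CPM in caput and 32.6 and 32.3 CPM in corpus. Of 16 tested genes 2 were higher and 1 lower, 18.8% called against 65.0% of all genes. Without the second caput library 6 were higher and 1 lower, and with library totals 6 higher and 0 lower. The 2 higher genes were Aif1, a macrophage calcium-binding protein gene with 2.76 and 5.12 CPM in caput and 0.784 and 0.963 CPM in corpus, and Csf1r at a mean of 1.72 CPM in caput. Ptprc, the common leukocyte antigen, had 2.32 and 4.41 CPM in caput and 1.79 and 3.09 CPM in corpus and was not called (0.45 ± 0.52, adjusted p = 0.464). Its difference was -0.08 without the second caput library. Lymphocyte markers summed to 5.1 and 33.2 CPM in caput and 30.1 and 45.2 CPM in corpus. The B cell genes Cd79a, with 1.61 and 8.47 CPM in caput and 10.2 and 14.6 CPM in corpus, and Ms4a1, with 0.323 and 7.92 CPM in caput and 7.56 and 10.8 CPM in corpus, were both low in the first caput library. Neither was called. With the replicate number as a block Cd79a was called at -1.67 (adjusted p = 0.0379), and without the second caput library Ms4a1 was called at -4.81 (adjusted p = 0.0096). Of the lymphocyte list 1 gene was higher and 0 lower, against 1 and 2 with the block and 1 and 3 without the second caput library. Of 8 listed red blood cell genes 1 passed the filter, Alas2, the erythroid heme synthesis enzyme, with 3.43 and 3.76 CPM in caput and 38.02 and 43.2 CPM in corpus (-3.50 ± 0.18).

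Sperm transcripts separated the caput libraries from each other. The protamine gene Prm1, which packs sperm DNA, had 7.16 and 46.1 CPM in caput and 0.056 and 0.152 CPM in corpus, and a log2 fold change of 7.89 ± 1.75 (adjusted p = 0.0206). Prm2 had 7.13 and 55.8 CPM in caput and 0 and 0.0507 CPM in corpus, with 1 read in all in corpus, a ratio of 1113 (95% exact counting interval 199.5 to 43980). Tnp2, a transition protein gene, had 4.31 and 32.5 CPM in caput and 0.112 and 0.0507 CPM in corpus, with 3 corpus reads and a ratio of 217.3 (74.16 to 1055). All 3 were higher in both caput libraries than in either corpus library, and 6- to 8-fold higher in the second caput library than in the first. None of them was called with only the 4 libraries, where the adjusted p was 0.0551 for Prm1, 0.0653 for Prm2 and 0.0656 for Tnp2. With no filter on low counts it was 0.0505, 0.0637 and 0.0604. Fold changes of these genes without the second caput library were 6.00 for Prm1, 7.79 for Prm2 and 5.66 for Tnp2. The sum over the 18 listed sperm genes was 73.7 and 285.7 CPM in caput and 45.6 and 97.8 CPM in corpus. Of 13 tested sperm genes 4 were higher in caput and 0 lower, 30.8% called against 65.0% of all genes. With only the 4 libraries 1 was higher and 0 lower.

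**Figure D3:**
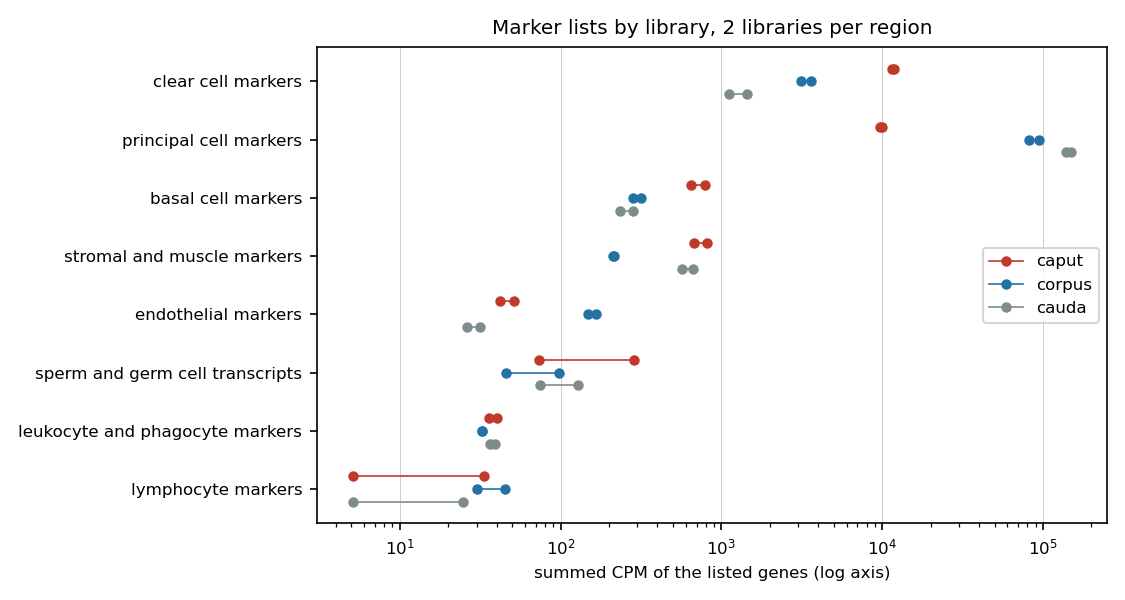
Each point is the sum of CPM over the genes of a marker list in 1 library (log axis), with 2 libraries per region joined by a line; red is caput, blue corpus and grey cauda. Clear cell markers run from 11798 CPM down to 3146 CPM between caput and corpus while principal cell markers run from 9628 CPM up to 93741 CPM, and the sperm and lymphocyte sums lie far apart within caput.

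The named genes with the largest differences toward caput were mostly genes of the proximal lumen. The list used for this was chosen with earlier results of these data known, so the overlap is a description only. The ranking by fold change passed over predicted genes and genes whose libraries overlapped. Gm749, a predicted gene, had 8017 reads in caput and 1 in corpus, a ratio of 4756 (853.3 to 187900). Of the 12 genes thus ranked highest at 10 CPM or more, 10 were on the list of luminal genes known from the proximal epididymis. The other 2 were Defb25 and Prm2. Of 32 tested genes of that list 22 were higher in caput and 9 lower, with a median of 2.28. The sum over the list was lower in caput, at 6122 and 9981 CPM against 12492 and 13850 CPM in corpus. The lipocalins, small carriers of hydrophobic ligands, held several of the higher genes, with 6 of 11 tested genes higher and 3 lower (median 2.76). Summed lipocalins were also lower in caput, at 1766 and 3159 CPM against 9495 and 8438.5 CPM in corpus. Lcn8 had 277 and 927 CPM in caput and 0.56 and 0.608 CPM in corpus, and Lcn9 had 237 and 595 CPM in caput and 0.168 and 0.355 CPM in corpus. The corpus libraries were near 0 for both, and the log2 fold changes were 9.99 ± 1.11 (adjusted p = 0.00243) and 10.58 ± 0.96 (adjusted p = 0.00127). Lcn10 had 67.3 and 171 CPM in caput and 0.168 and 0.203 CPM in corpus (9.28 ± 0.95) and Lcn6 had 65.8 and 107 CPM in caput and 0.112 and 0.101 CPM in corpus (9.59 ± 0.49). In each of these 4 genes the second caput library was above the first. Without it the fold change of Lcn8 was 8.87, that of Lcn9 9.77 and that of Lcn10 8.46. Lcn8 was 10.62 without the first caput library, and Lcn9 11.22 without the second corpus library.

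Gpx5, the epididymal glutathione peroxidase without selenium, was the most abundant in caput of these 12 genes. It had 1368 and 2309.5 CPM in caput and 1.12 and 2.28 CPM in corpus. Corpus was nearly empty of it while cauda again held 608 and 604 CPM, so the step from caput to corpus was 10.05 ± 0.47 (adjusted p = 4.59e-05). Without the second corpus library it was 10.67. Spag11b, a defensin-like gene, had 485 and 698 CPM in caput and 1.51 and 1.98 CPM in corpus (8.39 ± 0.26). Rnase10, a secreted ribonuclease relative, had 107 and 291 CPM in caput and 0.168 and 0.253 CPM in corpus (9.83 ± 1.29, and 8.94 without the second caput library). All of these genes kept caput and corpus far apart.

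Reproductive cystatins, relatives of cysteine protease inhibitors, behaved alike, and of 6 tested cystatins 3 were higher and 2 lower (median 4.66, and 7.13 without the second corpus library). Without the first caput library 5 were higher and 2 lower. Cst11 had 169 and 360.4 CPM in caput and 0.728 and 1.22 CPM in corpus (8.07 ± 0.67, and 7.42 without the second caput library). Cst12 had 55.9 and 277 CPM in caput and 0.056 and 0.203 CPM in corpus (10.23 ± 1.69). Its call depended on both corpus libraries, with an adjusted p of 0.0572 without the first and 0.0567 without the second. Its fold change was 10.96 and 8.66 without the first and the second caput library, and 9.63 and 11.40 without the first and the second corpus library. Cst8 had 55.99 and 136 CPM in caput and 0.112 and 0 CPM in corpus, with 2 reads in corpus and a ratio of 1747 (483.5 to 14430). Its fitted fold change was 9.89 without the second caput library, 14.15 without the first corpus library and 9.67 without the second. Adam28, a membrane metalloprotease gene, had 29.2 and 116 CPM in caput and 0 reads in both corpus libraries. With the reads of the 2 caput libraries pooled it was at least 866-fold higher in caput. That bound rests mostly on the second caput library and is not a bound for the first alone. Of 13 tested ADAM genes 5 were higher and 2 lower, 53.8% called against 65.0% of all genes (median 0.61, and 1.5 without the first corpus library). The sum over the listed ADAM genes was lower in caput, at 1152 and 1172 CPM against 3954.5 and 3891.5 CPM in corpus. Among the higher genes was the sheddase gene Adam10, with 241 and 219 CPM in caput and 52.7 and 48.4 CPM in corpus (2.19 ± 0.09). Adam28 was not called with only the 4 libraries (adjusted p = 0.101) or with no filter on low counts (0.0676). Its fitted value was 12.29 without the second caput library, which with 0 corpus reads is not a bound. The ubiquitous cystatins lay on the other side, Cst3 with 338 and 421 CPM in caput and 809 and 919.6 CPM in corpus (-1.19 ± 0.11) and Cstb with 175 and 188 CPM in caput and 313 and 327 CPM in corpus (-0.82 ± 0.08). With the length trend removed Cstb reversed to 0.30.

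Not all genes known from the proximal lumen were higher in caput. Rnase9 had 353 and 361 CPM in caput and 4462 and 5251 CPM in corpus (-3.76 ± 0.10), with 1231 and 1181 CPM in cauda, so it stood above both ends in corpus. Adam7, a sperm-transferred membrane protein gene, had 691 and 656 CPM in caput and 3831 and 3778 CPM in corpus (-2.50 ± 0.09). Ces5a, a secreted carboxylesterase also called cauxin, had 272 and 222 CPM in caput and 2567 and 2954 CPM in corpus (-3.48 ± 0.12). These genes are abundant in the corpus libraries and also among the principal cell markers whose sum was higher there.

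Beta-defensins, secreted antimicrobial peptides that also coat sperm, went to both extremes. Of 42 listed genes 37 passed the filter, and 11 of these were higher in caput and 19 lower, with a median of -1.54. Defb47 had 277 and 316 CPM in caput and 2.41 and 3.14 CPM in corpus (6.73 ± 0.22). Defb25 had 83.5 and 214 CPM in caput and 0.336 and 0.456 CPM in corpus (8.52 ± 0.90, and 7.69 without the second caput library). Defb45 had 9.85 and 11.7 CPM in caput and 0 and 0.101 CPM in corpus, with 2 corpus reads and a ratio of 201.4 (55.54 to 1666), and a fitted fold change of 6.65 and 10.98 without the first and the second corpus library. Defb20 was higher in caput in the presence of a clear corpus level, 855 and 1123 against 197 and 209 CPM (2.28 ± 0.13). On the other side Defb9 had 5.69 and 6.73 CPM in caput and 152 and 151 CPM in corpus (-4.61 ± 0.11) and Defb40 had 45.8 and 51.2 CPM in caput and 967 and 1126 CPM in corpus (-4.43 ± 0.12). Defb22, an abundant gene of the sperm coat, had 852 and 649.8 CPM in caput and 10707 and 12140.1 CPM in corpus (-3.93 ± 0.19) and 416 and 316 CPM in cauda. The corpus libraries were the peak for Defb22, while Defb9 was higher still in cauda, at 1353 and 1453 CPM. Of the 19 called lower, 14 lay between -3 and -5. Near-identical family members can lose reads that do not map to 1 place, so single values in this family are uncertain.

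**Figure D4:**
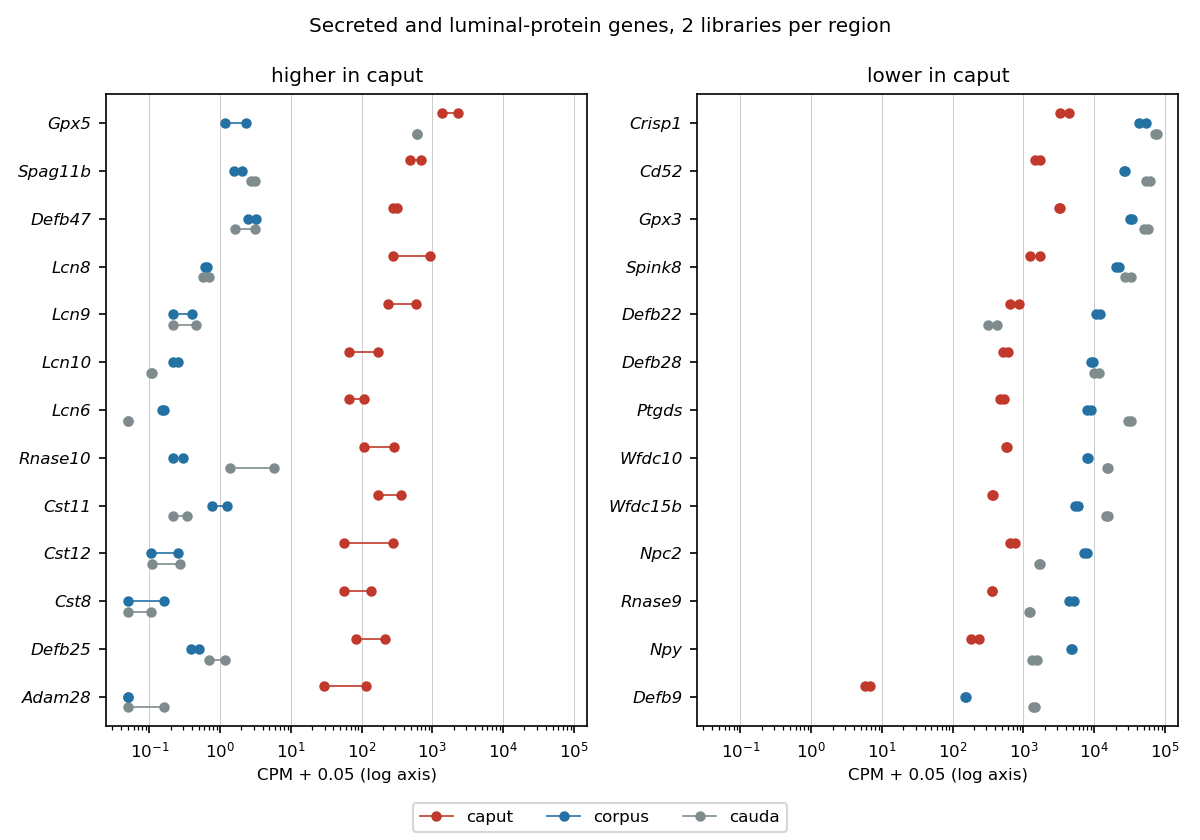
Points are single libraries (CPM plus 0.05, log axis), joined within a region; red is caput, blue corpus and grey cauda. On the left the caput points of Lcn8, Gpx5, Spag11b and the cystatins lie hundreds-fold to the right of corpus, and the second caput library is mostly the higher; on the right Crisp1, Cd52, Gpx3 and Ptgds lie about 10-fold or more to the left in caput.

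Several abundant transcripts of the corpus libraries were on the list of luminal genes known from the distal epididymis. They were already present in caput at a lower level. Of 22 tested genes of this list 15 were lower in caput and 2 higher, with a median of -3.03 (14 lower and 5 higher with library totals), and 12 of the 15 lay between -3 and -5. Crisp1, a cysteine-rich protein that binds sperm, had 4376 and 3289 CPM in caput and 43168 and 54016 CPM in corpus (-3.66 ± 0.17, adjusted p = 3.75e-07). Cd52, the gene of a lipid-anchored sperm coat glycopeptide, had 1719.7 and 1465 CPM in caput and 26617 and 27087 CPM in corpus (-4.08 ± 0.12). Gpx3, the secreted selenium glutathione peroxidase, had 3265 and 3159 CPM in caput and 31739 and 34017 CPM in corpus (-3.36 ± 0.10). Ptgds, a prostaglandin D synthase of the lipocalin family, had 527 and 461 CPM in caput and 9061 and 7944 CPM in corpus (-4.11 ± 0.12), and Lcn12, another lipocalin, had 34.5 and 34.6 CPM in caput and 289 and 281 CPM in corpus (-3.04 ± 0.08). In cauda Ptgds reached 32617 and 29641 CPM and Lcn12 1408 and 1395 CPM, above corpus. Npc2, a cholesterol-binding protein of lysosomes and epididymal fluid, had 749 and 646 CPM in caput and 7162 and 7996 CPM in corpus (-3.44 ± 0.11) and fell back to 1732 and 1652 CPM in cauda. Mif, a small secreted cytokine, was 1 of the 2 genes that were higher in caput, with 44.0 and 46.2 CPM in caput and 24.7 and 32.4 CPM in corpus (0.66 ± 0.14). The other was Bsph1, a sperm-binding protein gene (5.21, singled out like Atp6v0e and Ssr3 in other lists after its values were seen).

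Protease inhibitors of the Wfdc, Spink and Spint families were the list with the lowest median. Of 30 tested genes 26 were lower in caput and 1 higher, with a median of -3.58. Spink8 had 1719 and 1246 CPM in caput and 22673 and 20338 CPM in corpus (-3.86 ± 0.18). Wfdc10 had 585 and 562 CPM in caput and 7830.0 and 8281 CPM in corpus (-3.81 ± 0.09), Wfdc15b 367 and 357 CPM in caput and 5309 and 5912 CPM in corpus (-3.95 ± 0.10) and Wfdc6b 25.4 and 25.9 CPM in caput and 337 and 359 CPM in corpus (-3.76 ± 0.08). The exception was Spint1, a membrane-bound inhibitor of serine proteases in epithelia, with 582 and 529.6 CPM in caput and 199.8 and 212 CPM in corpus (1.43 ± 0.08). Serpins were more divided, 13 of 24 higher and 6 lower (median 1.57). Serpinb9, an intracellular granzyme B inhibitor, had 2623 and 2423 CPM in caput and 381 and 420.0 CPM in corpus (2.66 ± 0.11), and Serpinh1, a collagen chaperone, had 36.9 and 38.01 CPM in caput and 5.04 and 5.52 CPM in corpus (2.82 ± 0.19). The epididymal gene Serpina1f had 275 and 269.5 CPM in caput and 2972 and 3153 CPM in corpus (-3.49 ± 0.09), 1 of the low members.

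Predicted genes were again passed over. Mep1a, a metalloprotease of brush borders, had the most negative fold change at 10 CPM or more among genes outside the lists. It had 2.87 and 5.26 CPM in caput and 142 and 155 CPM in corpus (-5.21 ± 0.23, adjusted p = 2.49e-06). Npy, the neuropeptide Y gene, had 236 and 183 CPM in caput and 4904 and 4634 CPM in corpus, with 1530.2 and 1304 CPM in cauda (-4.51 ± 0.15, adjusted p = 5.91e-08). Dapl1 had 28.1 and 37.9 CPM in caput and 672 and 763 CPM in corpus and 113 and 115 CPM in cauda (-4.44 ± 0.15). Both of the latter were thus highest in corpus. Pnmt, the enzyme that makes adrenaline from noradrenaline, had 5.397 and 7.58 CPM in caput and 133 and 126 CPM in corpus (-4.33 ± 0.15), and Thrsp, a regulator of fatty acid synthesis, had 4.93 and 6.66 CPM in caput and 132 and 111 CPM in corpus (-4.40 ± 0.16). Lower levels with like differences were those of Gfi1b, a zinc finger repressor of blood cell genes, with 1.53 and 0.956 CPM in caput and 28.6 and 26.9 CPM in corpus (-4.46 ± 0.23), and of Lefty2, a TGF-beta family ligand, with 2.93 and 2.42 CPM in caput and 34.9 and 71.4 CPM in corpus (-4.31 ± 0.40). The corpus libraries of Lefty2 were 2-fold apart, and its difference was -3.70 without the second. Csn1s2a, Cd177 and Itih4 had log2 fold changes of -4.60, -4.46 and -4.39, with corpus levels between 9.97 and 17.3 CPM.

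Genes of the cytosolic ribosome were lower in caput almost without exception. Of 82 tested ribosomal protein genes 74 were lower and 0 higher, with 8 not called and a median of -1.62, against 31.8% of all tested genes lower. Rps26 had 35.6 and 37.9 CPM in caput and 257 and 279 CPM in corpus (-2.87 ± 0.08, adjusted p = 1.87e-08). Rpl3l, a paralog of Rpl3 best known from muscle, had 20.4 and 21.9 CPM in caput and 203 and 194 CPM in corpus (-3.23 ± 0.11). Ribosomal protein genes have many near-identical copies in the genome, so reads without a unique place are lost from them and their levels are uncertain.

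Ribosomal protein mRNAs are known to begin with a C and a run of pyrimidines, the terminal oligopyrimidine tract through which their translation is controlled. Windows from 8 bases before to 20 bases after the annotated start are shown for the 4 called genes with the smallest adjusted p among those with such a start, with the run in capitals, on GRCm38.p6.
Rplp2, chr7:141447643-141447670, plus strand: gcgtcttcCTTTCgccgccggacgccgc
Rpl14, chr9:120571509-120571536, plus strand: ccctctctCTTCTCgctgagcgccgcca
Rps21, chr2:180257371-180257398, plus strand: gacccgccCTCCTgcccaatagtgctgc
Rpl35, chr2:39005112-39005139, minus strand: gccctttcCTCTTTCTCTCgaaccaggc
A C followed by at least 4 pyrimidines stood exactly at the annotated start in 14 of the 62 ribosomal protein genes with a promoter in the table (22.6%), against 3.01% of all genes there. Among tested genes with a promoter it stood in 3.43% of those lower in caput, 3.00% of those higher and 2.89% of those not called.

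Mitochondrial genes leaned the same way. Of 75 tested genes for mitochondrial ribosomal proteins 57 were lower and 2 higher, with a median of -0.85. Mrpl33 had 96.3 and 107 CPM in caput and 376 and 379.6 CPM in corpus (-1.89 ± 0.08) and Mrpl54 had 85.0 and 82.0 CPM in caput and 287 and 278 CPM in corpus (-1.76 ± 0.07). The 2 higher genes were Mrpl37 (0.93) and Mrps5 (0.55). Mrpl37 missed the threshold without the first (adjusted p = 0.109) or the second corpus library (0.103), and Mrps5 without the second (0.0587). Of 75 nuclear genes for oxidative phosphorylation 57 were lower and 8 higher, with a median of -1.01. Ndufa1, an accessory subunit of complex I, had 158 and 166 CPM in caput and 975 and 1007 CPM in corpus (-2.61 ± 0.08) and Cox4i1 of complex IV had 683 and 658 CPM in caput and 3888 and 3936 CPM in corpus (-2.55 ± 0.08). Core subunits were among those higher. Sdhb, the iron-sulfur subunit of complex II, had 211 and 220.1 CPM in caput and 103 and 116 CPM in corpus (0.98 ± 0.08). Ndufs1, a core subunit of complex I, had 111 and 118 CPM in caput and 60.6 and 61.3 CPM in corpus (0.91 ± 0.08), and Atp5b, the beta subunit of the ATP synthase, had 2192 and 2162 CPM in caput and 1321 and 1381 CPM in corpus (0.69 ± 0.07).

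Gene length moved with these differences. Over 8 classes of equal size by deposited length, the median log2 fold change was -1.01 in the shortest class (55 to 1262 bases) and 0.35 in the longest. With the trend on length removed, the medians were -1.08 for cytosolic ribosomal proteins (62 lower, 1 higher), -0.39 for mitochondrial ribosomal proteins (45 lower, 8 higher) and -0.37 for oxidative phosphorylation (45 lower, 15 higher). With library totals they were -1.03 (59 lower, 1 higher), -0.26 (37 lower, 19 higher) and -0.42 (44 lower, 20 higher). The part of length in these results beyond that was not tested.

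Other metabolic genes were divided. Of 38 genes of glycolysis and the citric acid cycle 19 were higher in caput and 10 lower (median 0.44), and 32 higher and 4 lower with library totals. Pfkp, the platelet-type phosphofructokinase, had 276 and 257 CPM in caput and 26.1 and 29.4 CPM in corpus (3.26 ± 0.10). Hexokinase isoforms went opposite ways, Hk1 with 103 and 96.6 CPM in caput and 19.7 and 19.6 CPM in corpus (2.34 ± 0.11) and Hk2 with 41.1 and 43.9 CPM in caput and 113 and 117 CPM in corpus (-1.44 ± 0.08). Slc2a3, a glucose transporter, had 8.83 and 5.57 CPM in caput and 61.2 and 58.02 CPM in corpus (-3.04 ± 0.23). Ldhb, a lactate dehydrogenase subunit, had 763 and 743 CPM in caput and 228 and 239 CPM in corpus and 1735 and 1668 CPM in cauda, so corpus was its low point (1.69 ± 0.08). Of 45 glutathione, thioredoxin and superoxide genes 26 were lower and 10 higher (median -0.93), and 21 lower and 16 higher with library totals. The glutathione transferase genes Gstm2, with 272 and 282 CPM in caput and 1775 and 1739 CPM in corpus (-2.67 ± 0.08), and Gsta3, with 53.7 and 56.8 CPM in caput and 327 and 368 CPM in corpus (-2.65 ± 0.09), were low in caput. Nfe2l2, the factor that induces such genes, was high, with 351 and 319 CPM in caput and 130.2 and 137 CPM in corpus (1.33 ± 0.08), as was Gclc, the enzyme that limits glutathione synthesis, with 188 and 190.2 CPM in caput and 80.1 and 78.8 CPM in corpus (1.25 ± 0.08).

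Of 38 tested genes of endoplasmic reticulum folding and secretion 28 were lower in caput and 4 higher (median -0.75). With library totals 18 were lower and 10 higher, with a median of -0.16. Ssr4 of the translocon had 161 and 168 CPM in caput and 709 and 743 CPM in corpus (-2.14 ± 0.08), and the disulfide isomerase gene Pdia6 had 514 and 526 CPM in caput and 1738 and 2025 CPM in corpus (-1.86 ± 0.09). Herpud1, a stress-induced gene of the endoplasmic reticulum, was among the 4 higher genes, with 303 and 291 CPM in caput and 203 and 221 CPM in corpus (0.49 ± 0.08). The others were Ddit3, Ssr3 and Sec61a1, at 0.38, 0.33 and 0.28. Ddit3 missed the threshold without the first corpus library (adjusted p = 0.108), and Sec61a1 without the first caput (0.12), the first corpus (0.0913) or the second corpus library (0.0676). Of 28 sterol genes 14 were lower and 6 higher, with a median of -0.50. With library totals 10 were lower and 12 higher, with a median of 0.09. Fdps, which makes farnesyl diphosphate, had 47.1 and 40.8 CPM in caput and 327 and 307 CPM in corpus (-2.85 ± 0.11). Abcg1, a cholesterol exporter, had 17.7 and 15.9 CPM in caput and 2.63 and 4.81 CPM in corpus (2.17 ± 0.27) and Scarb1, a lipoprotein receptor gene, had 33.9 and 32.9 CPM in caput and 8.34 and 8.62 CPM in corpus (1.98 ± 0.15), so both were higher in caput.

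Genes of immune sensing were mostly higher in caput. Of 30 tested genes of pattern recognition and NF-kB signalling 21 were higher and 4 lower (median 0.84, against 33.2% of all genes higher). Nfkb2, an NF-kB subunit, had 177 and 154 CPM in caput and 26.2 and 25.6 CPM in corpus (2.67 ± 0.12). Tnfaip3, an inhibitor of the pathway, had 47.1 and 50.95 CPM in caput and 9.35 and 7.15 CPM in corpus (2.57 ± 0.16), and Ddx58, the RNA sensor RIG-I, had 92.7 and 70.9 CPM in caput and 10.9 and 11.05 CPM in corpus (2.90 ± 0.15). The exceptions included Irak1, a kinase below Toll-like receptors, with 102 and 84.8 CPM in caput and 287 and 257 CPM in corpus (-1.54 ± 0.10), and Ly96, the partner of Tlr4, with 9.33 and 10.5 CPM in caput and 25.8 and 35.1 CPM in corpus (-1.62 ± 0.16). The other lower genes were Irak4 (-0.97) and, named after its value was seen, the inhibitor gene Nfkbib (-0.47).

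Interferon response genes were higher in 25 of 39 cases and lower in 6 (median 1.14), and 29 and 2 with library totals. The sum over the listed genes was lower in caput, at 1623 and 1559 CPM against 2176 and 2143 CPM in corpus. Isg20, given below, made the larger part of the corpus sum. Ifngr2, a chain of the interferon gamma receptor, had 99.2 and 98.97 CPM in caput and 28.8 and 28.02 CPM in corpus (1.80 ± 0.10), and Ifitm2, a membrane restriction factor, had 93.1 and 94.6 CPM in caput and 23.5 and 26.2 CPM in corpus (1.92 ± 0.13). Isg20, an interferon-induced exonuclease, was far the other way, with 102 and 93.3 CPM in caput and 1316 and 1258 CPM in corpus (-3.72 ± 0.09). In antigen presentation 13 of 26 genes were higher and 2 lower (median 1.44, and 0.91 without the first caput library), and 14 and 5 with the replicate block. In all 57.7% were called, against 65.0% of all genes. The sum over the listed genes was lower in caput, at 4839 and 5203 CPM against 10711 and 12938 CPM in corpus. B2m, given below, made the larger part of the corpus sum. The peptide transporter gene Tap2 had 29.7 and 24.96 CPM in caput and 5.71 and 6.13 CPM in corpus (2.21 ± 0.18), the immunoproteasome gene Psmb8 had 34.2 and 32.2 CPM in caput (2.19 ± 0.13) and Mr1, which presents to mucosal T cells, had 51.3 and 48.9 CPM in caput and 8.62 and 9.83 CPM in corpus (2.44 ± 0.12). B2m, the light chain of class I molecules, was lower, with 2118 and 2172 CPM in caput and 7889 and 8417 CPM in corpus (-1.93 ± 0.09). The second lower gene was Tapbp, the chaperone tapasin, with 520.2 and 452 CPM in caput and 614 and 616 CPM in corpus (-0.34 ± 0.09). Tapbp missed the threshold without the second caput library (adjusted p = 0.0671) and was 0.25 with library totals. Leukocyte markers, given above, summed to 40.2 and 36 CPM in caput and 32.6 and 32.3 CPM in corpus. With library totals 6 of them were higher and 0 lower. The part of leukocytes in these differences was not tested.

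Among cytokines, chemokines and their receptors 15 of 33 were higher and 7 lower, 66.7% called against 65.0% of all genes. The median was 1.24, and with library totals 20 were higher and 4 lower. Cxcl16, a membrane-bound chemokine, had 49.9 and 39.99 CPM in caput and 2.74 and 3.14 CPM in corpus (3.93 ± 0.20), and Il34, a ligand of the macrophage receptor Csf1r, had 40.7 and 34.3 CPM in caput and 3.98 and 4.105 CPM in corpus (3.21 ± 0.16). Tgfb3 had 166 and 149 CPM in caput and 15.7 and 15.1 CPM in corpus (3.35 ± 0.14), whereas Tgfb1 had 9.33 and 8.23 CPM in caput and 20.1 and 17.8 CPM in corpus (-1.11 ± 0.15). The pair of TGF-beta genes thus lay on opposite sides. Il17re, a chain of the receptor for interleukin 17C, had 6.75 and 5.77 CPM in caput and 23.5 and 26.1 CPM in corpus (-1.98 ± 0.14). Of 22 complement genes 8 were lower and 3 higher (median -0.46), near the 31.8% of all genes lower. The counts were 4 lower and 4 higher without the first corpus library and 3 and 3 without the second (median -0.11), and the median was -0.12 without the second caput library. With library totals 2 were lower and 6 higher (median 0.12), so the list had no stable direction. C8g, a chain of complement C8, had 7.01 and 4.82 CPM in caput and 29.7 and 30.7 CPM in corpus (-2.35 ± 0.17).

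Transcription regulators of epithelia were higher in caput in 25 of 44 cases and lower in 11 (median 0.90), and 30 and 4 with library totals. Klf4 had 30.5 and 21.4 CPM in caput and 3.19 and 4.92 CPM in corpus (2.67 ± 0.24), Nfix had 163 and 167 CPM in caput and 37.96 and 35.8 CPM in corpus (2.17 ± 0.10) and Sox4 had 438 and 446 CPM in caput and 129 and 135 CPM in corpus (1.74 ± 0.08). The paired-box genes of the duct lineage were lower, Pax8 with 153 and 131 CPM in caput and 410.2 and 404 CPM in corpus (-1.52 ± 0.09) and Pax2 with 8.39 and 8.03 CPM in caput and 27.3 and 24.4 CPM in corpus (-1.65 ± 0.13). Hox genes, which mark position along the body axis, were split 8 higher and 6 lower of 27 (51.9% called against 65.0% of all genes, median -0.12). With library totals they were 12 higher and 1 lower (median 0.46). Hoxa10 had 9.44 and 17.1 CPM in caput and 1.904 and 1.52 CPM in corpus (2.95 ± 0.32) and Hoxb9 had 63.5 and 66.01 CPM in caput and 12.6 and 13.6 CPM in corpus, with 62.5 and 53.3 CPM in cauda (2.30 ± 0.11). Corpus was the low point of both, since Hoxa10 had 10.6 and 10.03 CPM in cauda. Hoxb2 had 8.04 and 7.85 CPM in caput and 15.7 and 15.3 CPM in corpus (-0.96 ± 0.14).

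Steroid and retinoid genes were higher in 14 of 25 cases and lower in 6 (median 0.94, and 0.39 at a mean of 5 CPM). The sum over the listed genes was lower in caput, at 1400 and 1385 CPM against 2026 and 2321 CPM in corpus. Esr1, the estrogen receptor alpha gene, had 116 and 105 CPM in caput and 22.5 and 17.9 CPM in corpus (2.46 ± 0.12). Rarb, a retinoic acid receptor gene that retinoic acid induces, had 45.9 and 40.4 CPM in caput and 4.704 and 5.52 CPM in corpus (3.07 ± 0.15), and Dhrs3, which reduces retinal, had 67.5 and 72.9 CPM in caput and 11.1 and 9.48 CPM in corpus (2.77 ± 0.12). The retinoic acid carrier Crabp2 had 7.24 and 7.68 CPM in caput and 66.5 and 77.2 CPM in corpus (-3.27 ± 0.10) and Srd5a1, a steroid 5-alpha reductase, had 26.1 and 22.8 CPM in caput and 109.8 and 117 CPM in corpus (-2.21 ± 0.10). Esr1, Rarb and Dhrs3 were thus on the higher side, and Crabp2 and Srd5a1 on the lower.

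Junction genes were higher in 21 of 30 cases and lower in 3 (median 0.82). Cldn4 had 266 and 217 CPM in caput and 27.1 and 24.3 CPM in corpus (3.23 ± 0.12) while Cldn3, a related claudin, had 323 and 299 CPM in caput and 1040.2 and 1023 CPM in corpus (-1.73 ± 0.09). The other lower genes were Cldn23 (-1.91) and Cgn, the cingulin gene (-0.66). Cxadr, an adhesion molecule of tight junctions, had 211 and 199.9 CPM in caput and 38.9 and 43.4 CPM in corpus (2.32 ± 0.09). Keratins were higher in 10 of 18 cases and lower in 3 (median 2.78), and 14 and 0 with library totals. Krt7, a keratin of ducts, had 1767 and 1728 CPM in caput and 256 and 301 CPM in corpus (2.65 ± 0.12) and Krt17, a stress-induced keratin, had 28.5 and 24.3 CPM in caput and 0.056 and 0.7601 CPM in corpus (5.95 ± 0.50). Krt17 was 5.10 without the first corpus library and 8.75 without the second. The simple-epithelium keratins Krt8, with 459 and 430.4 CPM in caput and 601 and 590.0 CPM in corpus (-0.42 ± 0.07), and Krt18, with 1331 and 1339.5 CPM in caput and 1776 and 1597 CPM in corpus (-0.34 ± 0.09), were a little lower in caput, but with library totals they were 0.17 and 0.25 higher, and the third lower keratin was Krt10 (-0.81). Krt18 missed the threshold without the first corpus library (adjusted p = 0.0613). Of 7 tested mucins 3 were higher and 1 lower, 57.1% called against 65.0% of all genes. Muc20 had 815 and 727 CPM in caput and 122 and 116 CPM in corpus (2.70 ± 0.10), and Muc4 had 50.01 and 45.8 CPM in caput and 2.97 and 6.28 CPM in corpus (3.36 ± 0.28, and 4.01 without the second corpus library). The third, Muc15 (3.99), missed the threshold without either caput library (adjusted p = 0.0764 and 0.107) or either cauda library (0.0555 and 0.0538), and was 3.06 and 8.32 without the first and the second corpus library. Muc5ac, singled out after its values were seen as the 1 lower mucin, had 45 reads in corpus and 0 in caput, at least 25.3-fold lower.

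Lists of the apical surface and its vesicles had medians near that of all genes, and their counts depended on the scaling. Microvillus and actin genes were higher in 16 of 34 cases and lower in 13 (median 0.12), and 21 and 7 with library totals (0.71). Gsn, the actin-severing protein gelsolin, had 1125 and 1037 CPM in caput and 174 and 135 CPM in corpus (2.81 ± 0.13), and Msn, the membrane linker moesin, had 40.8 and 41.7 CPM in caput and 5.32 and 5.27 CPM in corpus (2.96 ± 0.18). Myo7b, a myosin of brush border tips, had 3.58 and 2.63 CPM in caput and 28.3 and 27.8 CPM in corpus, with 2.62 and 2.45 CPM in cauda (-3.17 ± 0.18). It was thus a corpus transcript in these libraries. Endocytosis genes split 12 higher and 12 lower of 32 (median 0.12, and -0.15 with the length trend removed), and 21 and 5 with library totals (0.71). Dab2, an adaptor of clathrin coats, had 828 and 773 CPM in caput and 163 and 134 CPM in corpus (2.43 ± 0.12), whereas Lrp2, the endocytic receptor megalin, had 22.2 and 18.2 CPM in caput and 128 and 126 CPM in corpus (-2.65 ± 0.10). Lysosomal genes were higher in 20 of 45 cases and lower in 14 (median 0.00), and 30 and 9 with library totals (0.60). Ctsl, a cysteine protease, had 1557 and 1487 CPM in caput and 490.4 and 506 CPM in corpus (1.61 ± 0.09), and the sialidase gene Neu1 had 144 and 124 CPM in caput and 601 and 655 CPM in corpus (-2.23 ± 0.10).

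Luminal signalling genes were also divided, 13 of 27 higher and 10 lower (median 0.58, and 0.26 without the second caput library). Entpd1, which degrades extracellular ATP, had 135 and 122 CPM in caput and 22.1 and 19.1 CPM in corpus (2.65 ± 0.13), and P2rx4, an ATP-gated channel, had 74.3 and 70.9 CPM in caput and 27.7 and 29.9 CPM in corpus (1.33 ± 0.09). The nucleotide receptor gene P2ry1 had 2.55 and 3.62 CPM in caput and 20.9 and 19.4 CPM in corpus (-2.71 ± 0.18). Immediate early and dissociation genes were higher in 21 of 36 cases and lower in 6 (median 0.46), and 26 and 2 with library totals. Ier5 had 36.8 and 38.5 CPM in caput and 11.9 and 9.88 CPM in corpus (1.79 ± 0.16), and the heat shock gene Dnajb1 had 302 and 281 CPM in caput and 479 and 577 CPM in corpus (-0.85 ± 0.10). The part of cell handling in any difference above was not tested. Of 28 cell cycle genes 7 were higher and 6 lower, 46.4% called against 65.0% of all genes. The median was -0.05, and with library totals 12 were higher and 3 lower (0.54). Ccnd2, a D-type cyclin, had 55.99 and 58.4 CPM in caput and 549.6 and 454 CPM in corpus (-3.13 ± 0.13), and the replication gene Mcm2 had 49.9 and 47.9 CPM in caput and 19.99 and 24.6 CPM in corpus (1.13 ± 0.15).

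**Figure D5:**
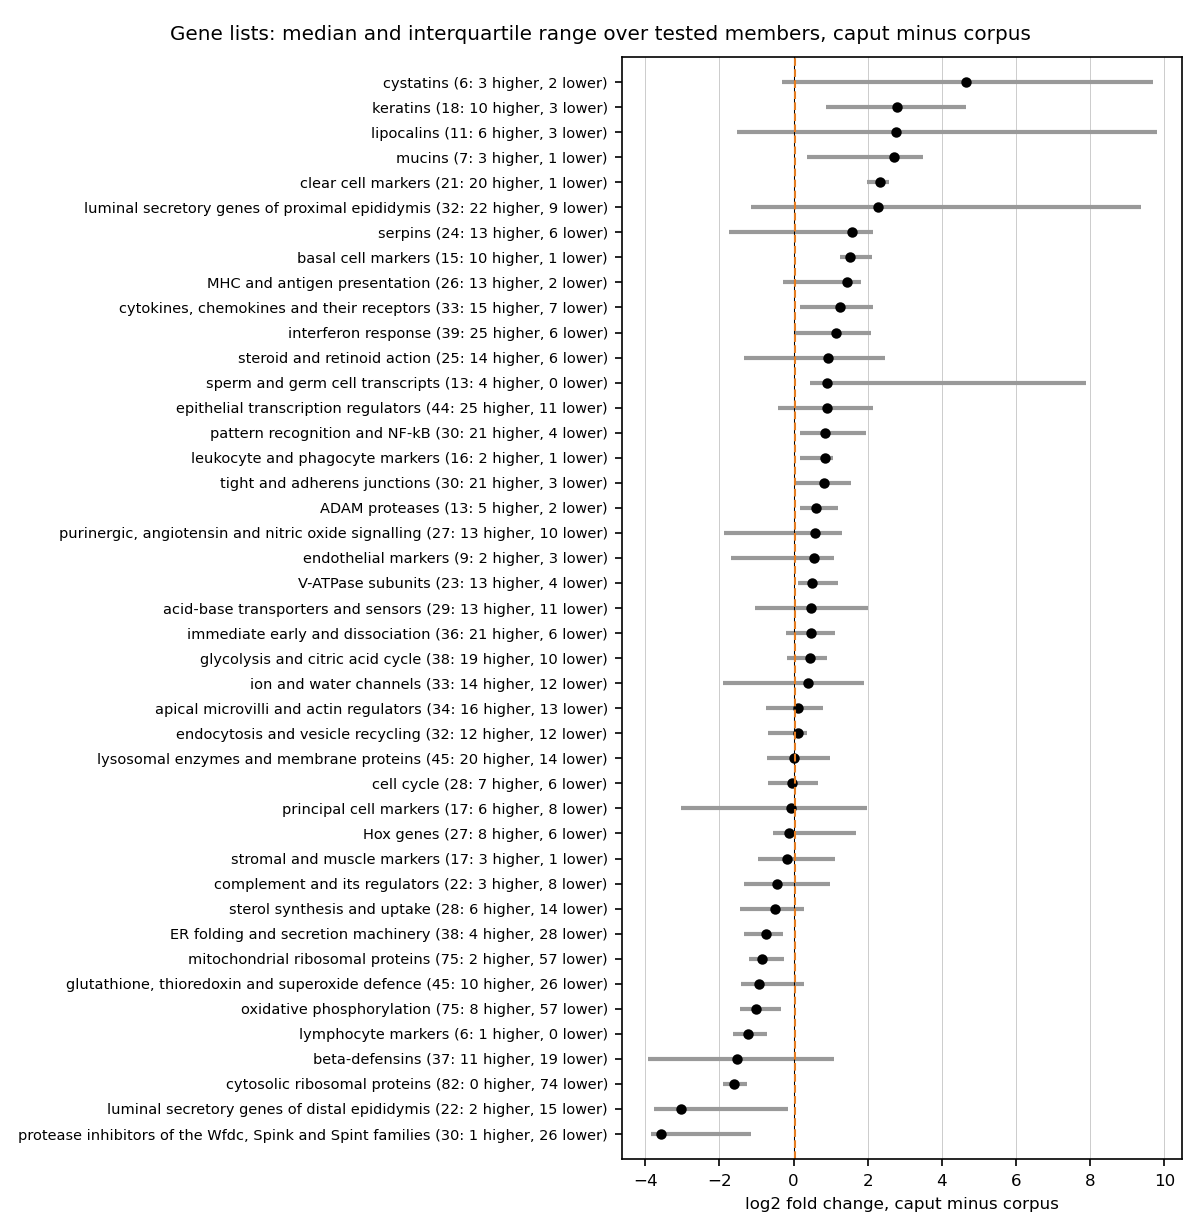
Dots are the median log2 fold change (caput minus corpus) over the tested members of each list with at least 6 tested genes, and bars their interquartile range; the number tested and called each way stands beside each name, and the dashed line is the median of all genes, 0.04. Clear cell markers have a narrow bar around 2.32, cytosolic ribosomal proteins a narrow bar around -1.62, and the lipocalin, cystatin and defensin bars are wide.

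Per unit of gene length, the order of the most abundant genes changed between the regions. In caput the first 5 by mean RPKM (± SD, n = 2) were Crisp1 at 2804 ± 601, Itm2b at 2749 ± 38.98, B2m at 2578 ± 10.6, Fth1 at 2026 ± 15.9 and Spink8 at 1939 ± 463. Itm2b encodes a membrane protein processed by furin, and Fth1 the ferritin heavy chain. In corpus they were Crisp1 at 34022 ± 5275, Spink8 at 26913 ± 2143, Defb28 at 23204 ± 953, Cd52 at 22381 ± 214 and Defb22 at 17991 ± 1545. The corpus list thus held only luminal genes, at RPKM values about an order of magnitude above those of caput. On the same scale Foxi1 stood at 999.7 ± 75.9 RPKM in caput against 162 ± 0.747 in corpus.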

How the data were processed

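The authors deposited 1 file of gene read counts (whole numbers) per library and 1 table of RPKM values. Total RNA from a PicoRNA kit went into Clontech SMARTER v4 libraries that were run on a HiSeq2500, per the labels. The submitters' processing notes name STAR, HTSeq, edgeR and mm9; their versions and the annotation are not stated in what was used here. The name of each deposited count file says not stranded, so overlapping and antisense genes cannot be told apart. Deposited RPKM values equal the counts divided by gene length and a scaled library size. The deposited length column (in bases, another unit) served for the length check.

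Rows naming no gene were left out: reads in no feature were 8.62% to 9.48% of records in these 4 libraries. Reads without a unique place were 33.1% and 33.5% in caput and 38.6% and 38.1% in corpus. The part of this in the differences was not tested. Genes with low counts were removed by filterByExpr, leaving 15816 of 24903 with a read. Counts of all 6 libraries were fitted with edgeR 4.0.16 (R 4.3.3; TMM scaling, robust quasi-likelihood F test, two-sided, region as the only factor, 3 residual degrees of freedom), with Benjamini-Hochberg adjustment. The procedure was run on simulated counts in which few genes changed. In these data many genes differed, so that run says nothing about the scaling here. Replicates differed by more than sampling noise (chi-square per degree of freedom 17.2 in caput, 9.57 in corpus). Ratios at 1 to 3 reads carry 95% exact intervals (scipy 1.17.1), and those at 0 reads use a floor of 3 counts over the group. Both pool the reads of the 2 libraries of a region. They cover counting error only, since reads carry no molecular identifiers.

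The members and the 44 gene lists were chosen with earlier results of these data known. Genes named are, at 10 CPM or more in the higher region, the 12 with the largest fold change each way whose libraries did not overlap (predicted genes passed over) and up to 3 called members of each list and direction by adjusted p (the 2 most abundant where none). To these come Foxi1, Atp6v1b1, Aqp9, Krt5, Ptprc and Prm1, and the 5 most abundant per length in each region; some genes that the rule took are left out of the text. Alternatives were other scalings (RLE factors, library totals), DESeq2 1.42.0, other filters, only the 4 libraries, a replicate block, the length trend removed, a null fold of 1.5 and each library left out. Promoter sequences are RefSeq's on GRCm38.p6, matched by symbol for 10492 tested genes; a gene with several starts counts where any holds the motif.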

Additional observations from a re-analysis of the deposited data

How the results depend on the processing

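Counts of called genes were within 1.5 times of 10275 under every alternative run except a null fold of 1.5, which called 6597 genes, 3237 of them higher in caput and 3360 lower. Library totals called 8438 higher and 2972 lower, and a filter at a mean of 5 CPM left 3739 genes called with an absolute log2 of at least 1. With each library left out in turn the calls ran from 8424 (without the second corpus library) to 9982. The labels pair no libraries by number; deviations of same-numbered libraries correlated at 0.187 between caput and corpus, 0.162 between caput and cauda and 0.134 between corpus and cauda, and a replicate block called 10633 genes. Of 232 named genes 196 kept direction and side of the threshold in every alternative. Reversed with library totals were Btg1 (0.08), Hoxb7 (0.15), Ifi35 (0.13), Krt18 (0.25), Krt8 (0.17) and Tapbp (0.25). With the length trend removed, alone and with the replicate block, Cstb (0.30 and 0.30), Krt18 (0.22 and 0.22) and Sec61a1 (-0.07 and -0.06) reversed, and Ptprc did without the second caput library (-0.08 to 0.90 over the libraries left out). The cause was not tested.

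List medians that changed sign were those of lists near 0 or with few or low members. With library totals these were sterol (0.09), Hox (0.46), complement (0.12), cell cycle (0.54), principal cell (0.53) and stromal (0.41) genes. At a mean of 5 CPM they were acid-base (-0.06), leukocyte (-1.10), stromal (0.45) and endothelial (-1.71) genes. With the length trend removed they were endocytosis (-0.15), Hox (0.05) and principal cell (0.58) genes, and with the block added endocytosis (-0.15), lysosomal (-0.02), Hox (0.06) and principal cell (0.58) genes. The lysosomal median was -0.01 with RLE factors, with DESeq2 and with 4 libraries. With no filter Hox (0.16), cell cycle (0.01) and principal cell (0.00) genes reversed, and with 4 libraries Hox (0.06) and principal cell (0.43) genes. With single libraries left out, medians crossed 0 for lysosomal (-0.05 to 0.14), Hox (-0.13 to 0.10), cell cycle (-0.09 to 0.17), stromal (-0.86 to 0.62) and endothelial (-0.84 to 1.12) genes. Medians that kept their sign but moved by over 1.5 times at a mean of 5 CPM included ADAM (1.67), cystatin (8.05), antigen presentation (0.45), beta-defensin (-2.97) and steroid (0.39) genes. With the length trend removed they included beta-defensins (-1.01), epithelial regulators (0.60), glutathione (-0.51), channel (0.10) and steroid (0.58) genes. Depth limits the sperm, blood cell and lumen genes with 0 to 3 reads in a region, whose fitted folds are no bounds.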
